A study of Mus musculus with 18 samples.

Results

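Macrophages of the lung air spaces were set against macrophages of the abdominal cavity of the same wild-type (WT) mouse strain, over all genes. The comparison holds 4 of the 18 samples of the series, 2 RNA-seq libraries of WT alveolar macrophages at steady state and 2 of WT peritoneal macrophages, chosen by their labels and by no measured value. Both groups are C57BL/6 mice with intact Bhlhe40 and Bhlhe41 genes (Bhlhe40+/+Bhlhe41+/+), and no transgene or treatment is named in their labels. Age and sex are not stated there, nor whether a library pools animals. Alveolar cells were sorted from digested lungs as CD11c+ SiglecF+ cells low in CD11b, and peritoneal cells from lavage fluid by CD11b, F4/80 and Tim4 at an intermediate level of MHC class II. WT alveolar macrophages of mixed bone marrow chimeras, sorted by the donor mark CD45.1 in addition, form a separate group of 2 libraries and are given beside some results. With them in place of the steady-state libraries, 42 of the called genes followed here moved by over 1.5 times. The 6 libraries of macrophages without both genes (Bhlhe40-/-Bhlhe41-/-) entered only the estimate of spread, the choice of features tested and the rescaling described below. ChIP samples were not analysed here. Tissue, isolation, sort and library series changed together between the groups, so their parts in any difference cannot be told apart.

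Alveolar macrophages live on the inner surface of the alveoli, where they take up and break down surfactant, a film of lipids and proteins made by epithelial cells. Their development depends on the cytokine GM-CSF, on TGF-beta and on the lipid-sensing receptor PPAR-gamma. Large peritoneal macrophages float in the fluid of the abdominal cavity, where they clear dying cells, and their identity depends on the transcription factor Gata6 and on retinoic acid.

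RNA levels are given as TPM, the unit the authors deposited, which corrects read counts for transcript length and scales them to a sum of 1000000 in each library. Pairs of values are the 2 libraries of a group. Differences are alveolar minus peritoneal on the log2(TPM + 1) scale, given with the SE of a limma fit over all 12 RNA-seq libraries. This scale understates differences of genes near 1 TPM. A gene is called higher or lower when its adjusted p is under 0.05 (limma, two-sided, Benjamini-Hochberg over all 12303 features tested), and the largest adjusted p of the called genes given with values below was 0.013, apart from Gp9 at 0.032. Where a group had no read of a gene, a lower bound on the ratio of read shares is given that allows 3 reads over that group, and where it had 1 to 3 reads, the ratio with an exact interval for counting error only. Leaving out a library lowered such bounds and ratios to a median of 0.45 times their value over 49 genes, and to 0.148 times at the lowest. The fitted difference of such genes depends on the pseudocount and is not given.

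The populations differed at most genes. Of 12303 features tested, 68.0% passed, 41.3% as higher and 26.7% as lower in alveolar macrophages. With a log2 difference of at least 2 as a second condition, 13.4% passed, 909 features (7.39%) as higher and 745 (6.06%) as lower. The median absolute log2 difference between the 2 libraries of a group was 0.093 in alveolar and 0.086 in peritoneal libraries, against 0.57 between the groups. Differences of at least 10 were found at 5 features higher and 13 lower. At 74 features both alveolar libraries reached 10 TPM or more while both peritoneal libraries were under 0.1 TPM, and at 81 features it was the other way round. In bulk RNA, fewer cells of a kind and less RNA per cell cannot be told apart.

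TPM is a composition, so abundant transcripts weigh on all others. Dividing the TPM of a library by its median of ratios to the geometric mean over libraries brought the median log2 difference of all features to 0, against 0.16 as deposited. It left 4207 features higher and 4256 lower in alveolar macrophages, against 5081 and 3287 as deposited, and with the second condition 803 higher and 788 lower. Differences below are as deposited and are to be read against that shift. Library depth, in units of 1000000 reads, was 19.82 and 17.62 in alveolar and 29.34 and 23.57 in peritoneal libraries. With the chimera libraries in place of the steady-state alveolar ones, 4101 features were higher and 4416 lower than in peritoneal macrophages, of which 746 and 844 by at least 2.

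**Figure D1:**
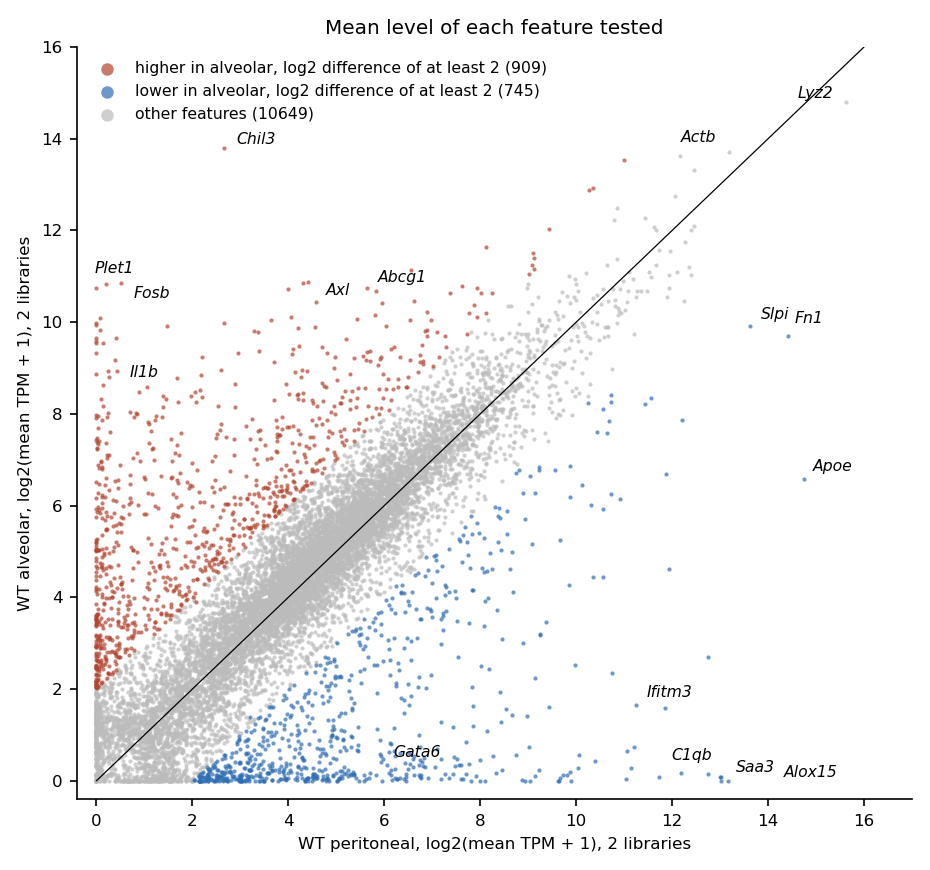
Mean level of each feature tested in WT alveolar (vertical axis) and WT peritoneal libraries (horizontal axis), both as log2(mean TPM + 1) over 2 libraries; the line marks equal levels. The 909 features higher and 745 lower in alveolar macrophages by at least 2 log2 units reach from both axes up to the most abundant transcripts, such as Chil3 above the line and Apoe below it.

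The genes of the sorted proteins are no finding, since the cells were chosen on those proteins, but they check the labels. Itgax, which encodes CD11c, was at 1082 and 1108 TPM in alveolar libraries, against 0.0978 and 0 TPM in peritoneal libraries. Siglec5, the symbol under which the files list SiglecF, was at 563 and 595 TPM in alveolar and 0.157 and 0.473 TPM in peritoneal libraries. Itgam, which encodes CD11b, was at 2.13 and 1.90 TPM in alveolar and 3515 and 3898 TPM in peritoneal libraries. Each of these 3 was high in the group sorted for its protein and near 0 in the other. Emr1, the gene of F4/80, was at 287 and 325 TPM in alveolar and 1694 and 1687 TPM in peritoneal libraries, and Timd4, the gene of Tim4, had no alveolar read and 812 and 759 TPM in peritoneal libraries.

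Markers known from other work were split as the labels say, with 3 exceptions. Among 26 markers of alveolar macrophages 23 were higher and 2 lower in alveolar macrophages and 1 did not pass, and all 25 markers of large peritoneal macrophages were lower, against 41.3% higher and 26.7% lower over all features. These counts include genes of the sort, namely Itgax and Siglec5 among the former and Timd4, Emr1 and Itgam among the latter. Their share in the counts is therefore no finding. Fabp4, a fatty acid carrier used to mark alveolar macrophages, was at 210.3 and 174 TPM in alveolar and 1459 and 1307 TPM in peritoneal libraries, a difference of -2.84 ± 0.15. Marco, a scavenger receptor for particles, was at 391 and 368 TPM in alveolar and 1066 and 960.2 TPM in peritoneal libraries, a difference of -1.41 ± 0.22. Both were thus lower in the alveolar libraries that they are used to mark, and Marco was lower still in chimera libraries, at 13.9 and 25.999 TPM. Fabp5, the third exception, was at 151 and 131 TPM in alveolar and 153 and 128 TPM in peritoneal libraries and did not pass (limma adjusted p = 0.96).

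Genes that tissue macrophages share were present in both populations at unequal levels, and all 19 of them that were listed passed, 11 as higher and 8 as lower in alveolar macrophages. Lyz2, the macrophage lysozyme and the most abundant transcript in each of the 4 libraries, was at 28936 and 27915 TPM in alveolar and 53847 and 47639 TPM in peritoneal libraries. Its close copy Lyz1 was at 72.4 and 66.3 TPM in alveolar and 2025 and 1828 TPM in peritoneal libraries, and reads of one may have been counted for the other. Csf1r, the receptor for the growth factor CSF1, was at 265 and 285 TPM in alveolar and 1530.2 and 1504 TPM in peritoneal libraries, a difference of -2.46 ± 0.08. Peritoneal libraries were the higher ones at these 3 genes, without overlap, as the groups were at 86.8% of all features tested. Lgals3, galectin 3, went the other way, at 2941 and 2841 TPM in alveolar and 498 and 592 TPM in peritoneal libraries. Ptprc, which encodes the leukocyte protein CD45, was higher too, by 2.12 ± 0.10. Cd14, a co-receptor for bacterial lipopolysaccharide, was at 911 and 936 TPM in alveolar and 601 and 557 TPM in peritoneal libraries, but did not pass without the second alveolar or the second peritoneal library, with differences of 0.65 and 0.62 (limma adjusted p = 0.053 and 0.063).

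The most abundant transcripts were largely different ones. The 12 most abundant features of alveolar libraries held 12.8% of all TPM there and 8.55% in peritoneal libraries. The 12 most abundant of peritoneal libraries held 4.80% of all TPM in alveolar libraries and 17.6% in peritoneal ones. Lyz2 and Actb, cytoskeletal actin, were on both lists. Chil3, a chitinase-like secreted protein, was at 14900.0 and 13648 TPM in alveolar and 3.22 and 7.39 TPM in peritoneal libraries. Fth1, the heavy chain of the iron store ferritin, was at 11900.0 and 12022 TPM in alveolar and 2188 and 1923 TPM in peritoneal libraries. Lysosomal genes (Ctsd, Ctss, Psap), cytoskeletal genes (Tmsb4x, Vim), Ftl1, Cd9 and the chemokine Ccl6 made up the rest, and among these Ctsd, a lysosomal protease, was at 10534 and 9989.8 TPM in alveolar and 5350.1 and 5908 TPM in peritoneal libraries.

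Secreted proteins led the peritoneal list. Apoe, the lipid carrier apolipoprotein E, was at 94.2 and 94.7 TPM in alveolar and 30870.0 and 24262 TPM in peritoneal libraries. Fn1, the matrix and plasma protein fibronectin, was at 941 and 724 TPM in alveolar and 21076 and 22693 TPM in peritoneal libraries, a difference of -4.73 ± 0.12. Slpi, an inhibitor of neutrophil proteases, was at 978 and 960.4 TPM in alveolar and 11747 and 13566 TPM in peritoneal libraries, a difference of -3.70 ± 0.19. Fn1 and Slpi RNA was still plentiful in alveolar libraries, and Apoe RNA less so. Saa3, Alox15, the 3 complement genes C1qa, C1qb and C1qc, the chemokine Pf4 and the lysosomal membrane protein Laptm5 completed the list, and of these Laptm5 alone differed by less than 1, at 4329 and 4377 TPM in alveolar and 5501 and 5799.8 TPM in peritoneal libraries.

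Among abundant genes the 12 largest differences upward were those of Chil3, Plet1, Krt19, Fosb, Itgax, Ear1, Fabp1, Atp6v0d2, Car4, Krt79, Cidec and Ctsk. Plet1, a surface protein known from epithelial progenitors, was at 1719 and 1709.9 TPM in alveolar libraries and had no peritoneal read, at least 22936-fold higher. Krt19, an epithelial keratin, was at 1897 and 1739 TPM in alveolar and 0.229 and 0.0720 TPM in peritoneal libraries. Krt79, another keratin, was at 878 and 666 TPM in alveolar libraries and had no peritoneal read, at least 11840.0-fold higher. Keratin RNA was therefore abundant in alveolar libraries, while the keratins Krt8 and Krt18 of simple epithelia stayed below 0.5 TPM in all 4 libraries.

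Several of the genes that differed most act on acid, bone matrix or nucleic acids. Atp6v0d2, a subunit of the proton pump, was at 919 and 896 TPM in alveolar libraries and had 3 reads over both peritoneal libraries, a ratio of read shares of 16467 (95% interval 5634 to 79855). Ctsk, the collagen-degrading cathepsin K, was at 799 and 683 TPM in alveolar and 0.149 and 0.0624 TPM in peritoneal libraries, a difference of 9.39 ± 0.20. Car4, a membrane-bound carbonic anhydrase, was at 863 and 750.4 TPM in alveolar libraries and had no peritoneal read, at least 7633-fold higher. Ctsk and Atp6v0d2 are best known from osteoclasts. Ear1 and Ear2, close copies of a ribonuclease family known from eosinophils, were at 981 and 1042 TPM and 627 and 663 TPM in alveolar libraries with no peritoneal read, and how reads were shared between the copies is not known.

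The 12 largest differences downward were those of Saa3, Alox15, C1qc, C1qb, C1qa, Prg4, Cd5l, Padi4, C4b, Fcna, Thbs1 and Itgam. Saa3, an acute-phase apolipoprotein, had no alveolar read and 9014 and 9251 TPM in peritoneal libraries, at least 26066-fold lower in alveolar macrophages. Alox15, the lipoxygenase that makes 12-HETE and 15-HETE, had no alveolar read and 8435 and 8277 TPM in peritoneal libraries, at least 108707-fold lower. Prg4, the joint lubricant lubricin, was at 0.142 and 0.0977 TPM in alveolar and 4619 and 4632 TPM in peritoneal libraries, a difference of -12.01 ± 0.09. Saa3, Alox15 and Prg4 were thus at or near 0 TPM in alveolar libraries, whereas Itgam of the same 12 genes had 146 alveolar reads. Padi4, an enzyme that turns arginine of histones into citrulline, had 1 alveolar read and 1943 and 2267 TPM in peritoneal libraries, a ratio of read shares, peritoneal over alveolar, of 88974 (95% interval 15969 to 3514330.0), or at least 13956 without the first alveolar library, which held that read.

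**Figure D2:**
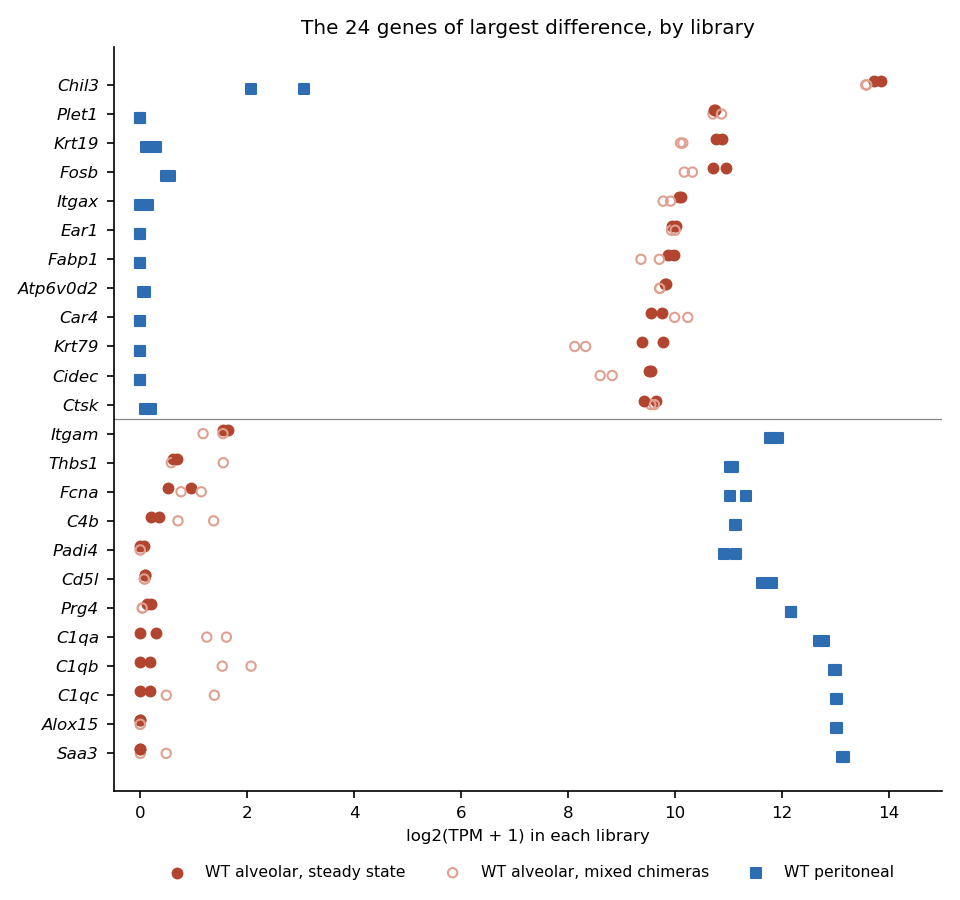
Level of the 24 genes of largest difference in each library, as log2(TPM + 1), for WT alveolar macrophages at steady state (filled circles), WT alveolar macrophages of mixed chimeras (open circles) and WT peritoneal macrophages (squares). Chimera libraries lie near the other alveolar libraries, with Krt79 lower at 279 and 321 TPM and C1qb higher at 3.21 and 1.89 TPM.

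The DNA before the start of such genes can be set beside their levels. RefSeq promoters, 250 bases before to 50 after the start on the build GRCm38.p6, matched 9014 of 12290 gene symbols tested. Promoters of 2 genes higher and 3 genes lower in alveolar macrophages follow, 5′ to 3′ on the gene's strand, since these genes stand at the ends of the comparison and C1qc and C1qb are neighbours that differed together. Chil3 is at chr3:106167515-106167814 on the minus strand, Plet1 at chr9:50494275-50494574 on the plus strand, Saa3 at chr7:46715627-46715926 on the minus strand, and C1qc at chr4:136892865-136893164 and C1qb at chr4:136886151-136886450 on the minus strand. Capitals mark matches on either strand to 5 motifs. These are AGATAA, which is bound by Gata6 and its relatives, the E-box CACGTG, which is bound by Bhlhe40 and Bhlhe41, TGANTCA, which is bound by the Fos and Jun dimers called AP-1, GAGGAAGT, which is bound by the Spi1 product PU.1, and AGGTCA, which is a half-site of nuclear receptors.
Chil3: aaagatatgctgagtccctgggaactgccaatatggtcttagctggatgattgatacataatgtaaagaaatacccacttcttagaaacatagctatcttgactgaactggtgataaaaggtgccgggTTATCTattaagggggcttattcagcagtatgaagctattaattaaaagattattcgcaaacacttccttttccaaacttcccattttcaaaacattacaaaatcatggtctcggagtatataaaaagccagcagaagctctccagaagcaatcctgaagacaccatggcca
Plet1: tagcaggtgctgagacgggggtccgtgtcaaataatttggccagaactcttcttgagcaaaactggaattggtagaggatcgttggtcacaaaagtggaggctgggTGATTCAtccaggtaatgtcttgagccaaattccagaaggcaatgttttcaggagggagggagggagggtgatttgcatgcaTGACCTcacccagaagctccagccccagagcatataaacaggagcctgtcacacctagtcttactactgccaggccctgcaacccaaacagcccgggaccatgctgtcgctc
Saa3: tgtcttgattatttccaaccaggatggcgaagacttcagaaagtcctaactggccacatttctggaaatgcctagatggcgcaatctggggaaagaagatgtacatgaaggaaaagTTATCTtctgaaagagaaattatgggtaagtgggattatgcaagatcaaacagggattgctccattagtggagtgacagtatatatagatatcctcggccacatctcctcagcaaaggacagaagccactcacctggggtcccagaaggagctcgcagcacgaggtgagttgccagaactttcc
C1qc: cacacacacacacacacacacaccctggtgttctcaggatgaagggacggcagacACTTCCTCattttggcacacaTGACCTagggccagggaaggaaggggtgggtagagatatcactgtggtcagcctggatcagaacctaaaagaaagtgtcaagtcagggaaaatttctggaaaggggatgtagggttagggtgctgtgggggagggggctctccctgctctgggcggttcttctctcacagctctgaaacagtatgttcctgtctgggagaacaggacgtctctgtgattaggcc
C1qb: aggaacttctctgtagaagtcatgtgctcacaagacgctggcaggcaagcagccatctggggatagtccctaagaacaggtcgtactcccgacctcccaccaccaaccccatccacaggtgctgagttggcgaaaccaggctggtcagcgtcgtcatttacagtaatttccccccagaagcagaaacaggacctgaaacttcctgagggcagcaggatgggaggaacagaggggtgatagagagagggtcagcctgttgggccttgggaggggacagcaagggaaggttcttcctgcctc

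Chil3 and Saa3, at opposite ends of the comparison, each held 1 GATA match. Plet1 held 1 AP-1 match and 1 half-site, C1qc held 1 PU.1 match and 1 half-site, and C1qb held none of the 5 motifs. Of 665 promoters of genes higher in alveolar macrophages by at least 2, 8.87% held a GATA match, against 9.26% of 540 promoters of genes lower by at least 2 and 6.37% of all 9014. In the same order, AP-1 matches stood in 9.02%, 7.22% and 5.10%, PU.1 matches in 5.56%, 6.48% and 3.49%, E-boxes in 10.5%, 7.04% and 10.4%, and half-sites in 14.1%, 11.3% and 12.3%. These shares count letters, not binding, and matches of different motifs may overlap.

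Transcription factors differed in both directions, and some families were divided. In this list, 77 of 82 listed genes were tested, of which 42 were higher and 24 lower in alveolar macrophages and 11 did not pass, with a median difference of 0.44 against 0.16 over all features. Counts of this kind are read against the 41.3% higher and 26.7% lower of all features. Of 33 lists, 12 lay within 15 percentage points of both shares, namely those of transcription factors, growth factor receptors, TGF-beta, clotting, microbial sensors, cytokines, iron, arginine, antioxidants, glycolysis, the respiratory chain and replication. Runx1, a factor of blood cell development, was at 213 and 213 TPM in alveolar and 7.90 and 7.53 TPM in peritoneal libraries. Runx2, known from bone, was at 51.8 and 61.5 TPM in alveolar and 0.248 and 0.312 TPM in peritoneal libraries. Runx3 was at 0.0313 and 0.107 TPM in alveolar and 26.5 and 24.6 TPM in peritoneal libraries, a difference of -4.63 ± 0.23. The Runx family therefore split, with Runx1 and Runx2 high in alveolar and Runx3 high in peritoneal macrophages.

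Lipid-sensing receptors and the repressors that the series is about were higher in alveolar macrophages. Pparg, the fatty acid receptor that alveolar macrophages require, was at 299 and 309.7 TPM in alveolar and 2.66 and 1.79 TPM in peritoneal libraries, a difference of 6.58 ± 0.15. Nr1h3, the sterol receptor LXR-alpha, was at 67.8 and 60.9 TPM in alveolar and 7.42 and 6.51 TPM in peritoneal libraries. Tfec, a relative of the lysosomal factor Mitf, was at 208 and 212 TPM in alveolar and 14.4 and 14.8 TPM in peritoneal libraries. Peritoneal libraries held under 20 TPM of each. Bhlhe41 and Bhlhe40 differed by 4.49 ± 0.18 and 1.24 ± 0.19. Cebpa, Cebpb and Spi1, factors general to myeloid cells, were higher too, by 1.201 ± 0.08, 1.17 ± 0.21 and 0.63 ± 0.07, and Cebpa by 0.44 with chimera libraries.

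Factors of the peritoneal side included Gata6, Maf and Smad3. Gata6 had 5 reads over both alveolar libraries and 141 and 165 TPM in peritoneal libraries. Maf, a factor known to restrain self-renewal of macrophages, was at 0.335 and 0.574 TPM in alveolar and 80.5 and 67.6 TPM in peritoneal libraries, a difference of -5.69 ± 0.16. Smad3, a transducer of TGF-beta signals, was at 0.0718 and 0.109 TPM in alveolar and 102 and 113 TPM in peritoneal libraries, a difference of -6.63 ± 0.12. Alveolar libraries were under 5 TPM at all 3. Klf2, a factor that keeps leukocytes quiescent, was at 78.4 and 72.2 TPM in alveolar and 1729 and 1651 TPM in peritoneal libraries, while Klf4 of the same family was at 504 and 579 TPM in alveolar and 104 and 117 TPM in peritoneal libraries. The interferon regulatory factors Irf7, Irf4 and Irf1 were lower, with differences of -3.24 ± 0.12, -2.50 ± 0.23 and -2.31 ± 0.28, and Irf8 did not pass, at 141 and 148 TPM in alveolar and 143 and 119 TPM in peritoneal libraries, but did as higher without the first peritoneal library, with a difference of 0.28 (limma adjusted p = 0.039).

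**Figure D3:**
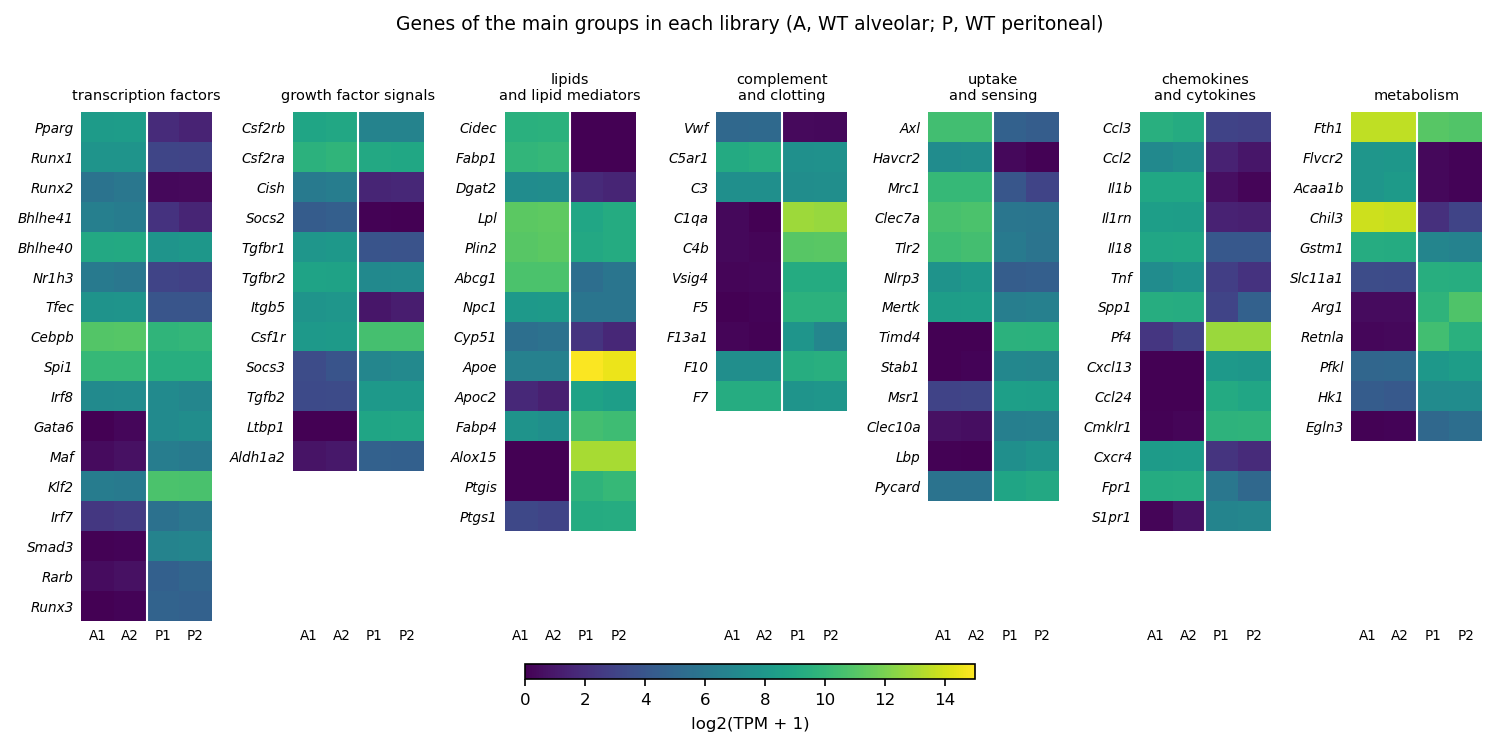
Level of selected genes in each of the 4 libraries as a colour scale of log2(TPM + 1), from 0 (dark) to 15 (bright), with WT alveolar libraries (A1, A2) left and WT peritoneal libraries (P1, P2) right in each block. The 2 libraries of a group share nearly the same colour, and the break falls between the groups, as at Gata6, C1qa and Chil3.

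Receptor genes for GM-CSF were higher, and those for CSF1 and G-CSF lower, in alveolar macrophages. The GM-CSF receptor joins an alpha chain to a beta chain that signals through Jak2 and Stat5. Csf2rb, the beta chain, was at 457 and 501 TPM in alveolar and 103 and 103 TPM in peritoneal libraries, a difference of 2.20 ± 0.07. Csf2ra, the alpha chain, was at 810.3 and 913 TPM in alveolar and 531 and 492 TPM in peritoneal libraries, a difference of 0.75 ± 0.10. Both chains were therefore present on either side. Cish, a feedback inhibitor that Stat5 is known to induce, was at 68.97 and 82.4 TPM in alveolar and 1.89 and 2.15 TPM in peritoneal libraries. Socs2, another such inhibitor, was at 19.8 and 22.1 TPM in alveolar and 0.0584 and 0.0366 TPM in peritoneal libraries. Socs3, an inhibitor of IL-6 type signals, was at 10.3 and 13.9 TPM in alveolar and 119 and 131 TPM in peritoneal libraries and so ran opposite to both. Csf3r, the G-CSF receptor, differed by -2.32 ± 0.19, Stat5a by 0.70 ± 0.08, and Stat5b did not pass (limma adjusted p = 0.38). In this list, 16 of 18 listed genes were tested, of which 8 were higher and 5 lower in alveolar macrophages and 3 did not pass.

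TGF-beta genes differed in both directions. Latent TGF-beta is held by binding proteins, freed by integrins or thrombospondin, and sensed by paired receptors. For the pathway, 34 of 38 listed genes were tested, of which 17 were higher and 11 lower in alveolar macrophages and 6 did not pass, with 7 and 8 by at least 2. The receptor chains Tgfbr1 and Tgfbr2 were higher in alveolar macrophages by 4.07 ± 0.14 and 1.56 ± 0.08, and the feedback genes Skil, Smad7 and Pmepa1 by 4.55 ± 0.21, 1.94 ± 0.15 and 3.02 ± 0.10. Itgb5, a chain of an integrin that binds the latent ligand, was at 221 and 232 TPM in alveolar and 0.912 and 1.295 TPM in peritoneal libraries. The ligand Tgfb1 was at 699 and 725 TPM in alveolar and 516 and 485 TPM in peritoneal libraries, and Tgfb2 at 9.26 and 9.61 TPM in alveolar and 274 and 261 TPM in peritoneal libraries. So the ligands ran in opposite directions, by 0.51 ± 0.09 and -4.68 ± 0.17. Ltbp1, a binding protein of the latent ligand, had 1 alveolar read and 457 and 476 TPM in peritoneal libraries. Thbs1, thrombospondin, was at 0.525 and 0.600 TPM in alveolar and 2168 and 2101 TPM in peritoneal libraries.

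Retinoic acid genes differed in both directions. Vitamin A is oxidised by retinol and retinal dehydrogenases, and the product binds the receptors Rara, Rarb and Rarg. In this list, 19 of 28 listed genes were tested, of which 6 were higher and 9 lower in alveolar macrophages and 4 did not pass, with 2 higher and 6 lower by at least 2. Aldh1a2, which makes retinoic acid, was at 0.700 and 0.984 TPM in alveolar and 24.4 and 23.2 TPM in peritoneal libraries. Rarb was at 0.439 and 0.602 TPM in alveolar and 23.6 and 28.97 TPM in peritoneal libraries, and Rarg at 16.5 and 16.8 TPM in alveolar and 170.5 and 185 TPM in peritoneal libraries. All 3 were lower in alveolar macrophages, whereas Rara was higher, at 207 and 218 TPM in alveolar and 78.1 and 72.3 TPM in peritoneal libraries. Tgm2, a transglutaminase that retinoids are known to induce, was at 1129 and 1084 TPM in alveolar and 11.4 and 19.9 TPM in peritoneal libraries, a difference of 6.11 ± 0.25 against the direction of Rarb and Rarg. The other gene higher by at least 2 was 1300002K09Rik, a relative of Stra6 now called Stra6l, at 9.29 and 9.89 TPM in alveolar libraries with no peritoneal read, at least 250.1-fold higher.

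Genes of fatty acid uptake and storage were mostly higher in alveolar macrophages. Here 31 of 35 listed genes were tested, of which 22 were higher and 4 lower in alveolar macrophages and 5 did not pass, with a median of 1.18, and 14 were higher and 2 lower by at least 2. Cidec, which fuses lipid droplets, was at 735 and 750.2 TPM in alveolar libraries and had no peritoneal read, at least 9149-fold higher. Fabp1, the liver-type fatty acid carrier, was at 938 and 1012 TPM in alveolar libraries and had no peritoneal read, at least 3468-fold higher. Dgat2, which makes triglycerides, was at 157 and 163 TPM in alveolar and 2.45 and 1.93 TPM in peritoneal libraries. These 3 were close to absent on the peritoneal side. Plin2, a coat protein of lipid droplets, was at 2183 and 2376 TPM in alveolar and 525 and 592 TPM in peritoneal libraries. Lpl, which frees fatty acids from lipoproteins, was at 2379 and 2441 TPM in alveolar and 477 and 603 TPM in peritoneal libraries. Plin2 and Lpl were thus abundant in both populations. The carriers Fabp4 and Fabp3 were lower, with differences of -2.84 ± 0.15 and -2.18 ± 0.15.

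Fatty acid oxidation genes were mostly higher as well. In this list, 30 of 32 listed genes were tested, of which 23 were higher and 2 lower in alveolar macrophages and 5 did not pass, or 23 and 6 after rescaling, and the median was 1.03. Acaa1b, a peroxisomal thiolase, was at 236 and 283 TPM in alveolar and 0.236 and 0.118 TPM in peritoneal libraries, a difference of 7.79 ± 0.24. Its near copy Acaa1a was at 174 and 170.01 TPM in alveolar and 65.8 and 69.2 TPM in peritoneal libraries. Peritoneal libraries thus held Acaa1a but little of its copy. Cpt1a, which admits fatty acids to mitochondria, was at 427 and 432 TPM in alveolar and 180.01 and 155 TPM in peritoneal libraries. The mitochondrial enzymes Acadl and Hadh did not pass, with limma adjusted p of 0.85 and 0.41, and Echs1 was lower, with a difference of -0.37 ± 0.07.

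Cholesterol genes divided between transport out of the cell and apolipoproteins. Among genes of LXR control and cholesterol export, all 22 listed genes were tested, of which 13 were higher and 8 lower in alveolar macrophages and 1 did not pass. Abcg1, which exports cholesterol, was at 1733 and 1691 TPM in alveolar and 42.03 and 55.98 TPM in peritoneal libraries, a difference of 5.11 ± 0.12. Npc1, which moves cholesterol out of lysosomes, was at 273 and 283 TPM in alveolar and 55.4 and 56.4 TPM in peritoneal libraries. Nceh1, which frees stored cholesterol, was at 607 and 592 TPM in alveolar and 30.7 and 30.01 TPM in peritoneal libraries. All 3 were higher in alveolar macrophages. Apoc2, an activator of lipoprotein lipase, was at 2.35 and 1.53 TPM in alveolar and 401 and 335 TPM in peritoneal libraries. Apoc1 was at 38.7 and 44.5 TPM in alveolar and 152 and 187 TPM in peritoneal libraries. The genes of the Apoe cluster were thus lower together, and in chimera libraries Apoe was lower still, at 22.5 and 16.2 TPM, and so was Apoc1, at 0.708 and 0.382 TPM.

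Cholesterol synthesis genes were higher in alveolar macrophages at most steps. In all, 27 of 29 listed genes were tested, of which 21 were higher and 3 lower in alveolar macrophages and 3 did not pass, with a median of 1.12. Cyp51 and Sqle, enzymes after squalene formation, were higher by 3.59 ± 0.20 and 2.91 ± 0.16. Enzymes that supply the building blocks of cholesterol and fatty acids did not follow. Acly, which makes cytosolic acetyl-CoA, was at 262 and 260.5 TPM in alveolar and 672 and 780.2 TPM in peritoneal libraries. Acaca, which makes malonyl-CoA, was at 22.8 and 23.7 TPM in alveolar and 121 and 117 TPM in peritoneal libraries. Fasn, the fatty acid synthase that uses both, did not pass, at 29.5 and 30.9 TPM in alveolar and 29.3 and 35.1 TPM in peritoneal libraries.

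Enzymes of lipid mediators differed in both directions, with the large differences mostly downward. In this list, 25 of 31 listed genes were tested, of which 10 were higher and 12 lower in alveolar macrophages and 3 did not pass, with 1 higher and 6 lower by at least 2. Ptgs1, the constitutive cyclooxygenase, was at 8.60 and 7.49 TPM in alveolar and 592 and 624 TPM in peritoneal libraries, a difference of -6.08 ± 0.08, with 38.5 and 42.4 TPM in chimera libraries. Ptgis, which turns its product into prostacyclin, had no alveolar read and 847 and 1056 TPM in peritoneal libraries, at least 8861-fold lower. Ptgs1 and Ptgis were therefore both low in alveolar macrophages. The other cyclooxygenase gene, Ptgs2, ran the other way, with 166 alveolar reads and no peritoneal read, at least 78.2-fold higher. Alox5, the first enzyme of leukotrienes, did not pass, at 492 and 469 TPM in alveolar and 467 and 524 TPM in peritoneal libraries. Lta4h, which makes leukotriene B4, was higher by 1.36 ± 0.12, while Ltc4s, which makes leukotriene C4, was lower, with a difference of -1.47 ± 0.13. Pla2g7, which degrades platelet-activating factor, was at 4.07 and 4.73 TPM in alveolar and 275 and 301 TPM in peritoneal libraries.

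Complement genes were mostly lower in alveolar macrophages. The classical pathway starts with C1q, the lectin pathway with proteins such as ficolin, and both go through C4 to C3. In this list, 22 of 35 listed genes were tested, of which 3 were higher and 17 lower in alveolar macrophages and 2 did not pass, with 11 lower by at least 2 and a median of -1.95. The 3 higher ones include Itgax, which is a gene of the sort and no finding. C1qa had 2 alveolar reads and 7127 and 6638 TPM in peritoneal libraries. C1qb and C1qc had 1 alveolar read each and 8336 and 8119.6 TPM and 8398 and 8281 TPM in peritoneal libraries, and the ratio of read shares, peritoneal over alveolar, was 141187 (95% interval 25340.0 to 5576601) for C1qb, or at least 24917 without the second alveolar library, which held that read. The 3 chains of C1q were thus low together. Fcna, ficolin A, was at 0.925 and 0.423 TPM in alveolar and 2588 and 2102 TPM in peritoneal libraries. C4b was at 0.271 and 0.155 TPM in alveolar and 2228 and 2264 TPM in peritoneal libraries, and some reads of its near-identical copy C4a may be its own. C3 itself did not pass, at 178 and 177 TPM in alveolar and 161 and 172 TPM in peritoneal libraries.

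Regulators and receptors of complement divided too. Cfp, properdin, which stabilises the C3 convertase, was at 233 and 234 TPM in alveolar and 4870.4 and 4609 TPM in peritoneal libraries. Vsig4, a receptor for C3 fragments, was at 0.170 and 0.195 TPM in alveolar and 594 and 595 TPM in peritoneal libraries. Both were high in peritoneal libraries, and Cfp stayed above 100 TPM in alveolar ones. C3ar1, the C3a receptor, was at 0.454 and 0.324 TPM in alveolar and 189.7 and 175 TPM in peritoneal libraries. The C5a receptors C5ar1 and C5ar2 were higher in alveolar macrophages, by 1.65 ± 0.10 and 3.14 ± 0.10.

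Clotting genes were found on both sides. Here 21 of 34 listed genes were tested, of which 10 were higher and 8 lower in alveolar macrophages and 3 did not pass, with 6 higher and 5 lower by at least 2. Vwf, von Willebrand factor, usually made by endothelium and platelets, was at 32.9 and 33.3 TPM in alveolar and 0.303 and 0.257 TPM in peritoneal libraries. F7, factor VII, was at 629 and 630.5 TPM in alveolar and 212 and 238 TPM in peritoneal libraries. Both were higher in alveolar libraries. F10, factor X, which factor VII activates, was at 167 and 173 TPM in alveolar and 642 and 718 TPM in peritoneal libraries. F5, factor V, had 5 alveolar reads and 809 and 806 TPM in peritoneal libraries. F13a1, factor XIII, was at 0.155 and 0.0709 TPM in alveolar and 226 and 115 TPM in peritoneal libraries. Factors X, V and XIII were thus the peritoneal ones, and the peritoneal libraries differed widely from each other at F13a1.

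Genes for the uptake of dying cells were higher in alveolar macrophages as often as lower. In this list, 28 of 34 listed genes were tested, of which 13 were higher and 13 lower in alveolar macrophages and 2 did not pass. Axl, a receptor kinase that binds dying cells through Gas6, was at 1394 and 1398 TPM in alveolar and 24.6 and 20.8 TPM in peritoneal libraries, a difference of 5.89 ± 0.20. Its relative Mertk was at 328 and 332 TPM in alveolar and 85.6 and 90.8 TPM in peritoneal libraries. Havcr2, which encodes Tim3, was at 158 and 171 TPM in alveolar and 0.231 and 0.0726 TPM in peritoneal libraries. Against these stood Stab1, stabilin, with 5 alveolar reads and 120.5 and 119.5 TPM in peritoneal libraries. Timd4, given above and of the same family as Havcr2, is a gene of the sort, so its direction is no finding. The bridging proteins Mfge8 and Gas6 were lower in alveolar macrophages, with differences of -3.07 ± 0.34 and -2.39 ± 0.32, so Axl and its ligand ran in opposite directions. The Cd300 family was divided. Cd300lf was at 276 and 287 TPM in alveolar and 5.47 and 7.29 TPM in peritoneal libraries. Cd300lb was at 17.4 and 15.4 TPM in alveolar and 165 and 159.6 TPM in peritoneal libraries.

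Scavenger receptors were divided evenly, as 17 of 22 listed genes were tested, of which 8 were higher and 8 lower in alveolar macrophages and 1 did not pass. Mrc1, the mannose receptor, was at 1060.00 and 1058 TPM in alveolar and 15.2 and 7.55 TPM in peritoneal libraries. Olr1, a receptor for oxidised lipoproteins, was at 481 and 512 TPM in alveolar and 4.79 and 5.35 TPM in peritoneal libraries. Msr1, scavenger receptor A, was at 7.07 and 7.94 TPM in alveolar and 359 and 339 TPM in peritoneal libraries, a difference of -5.36 ± 0.13, with 25.2 and 25.8 TPM in chimera libraries. Mrc1 and Olr1 were thus high in alveolar and Msr1 in peritoneal libraries. Cd163, which takes up hemoglobin, was at 0.0271 and 0.155 TPM in alveolar and 33.2 and 20.8 TPM in peritoneal libraries. Cd5l, a secreted protein of tissue macrophages, was at 0.0598 and 0.0684 TPM in alveolar and 3156 and 3592 TPM in peritoneal libraries.

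Lectins, which bind sugars of microbes and of the body's own cells, were widely different. In this list, 28 of 34 listed genes were tested, of which 17 were higher and 10 lower in alveolar macrophages and 1 did not pass, and 14 were higher and 7 lower by at least 2. Clec7a (dectin-1), a receptor for fungal glucan, was at 1609.5 and 1690.4 TPM in alveolar and 57.1 and 55.2 TPM in peritoneal libraries. Clec4n (dectin-2) was at 945 and 1059.7 TPM in alveolar and 7.65 and 3.02 TPM in peritoneal libraries. Ly75, an endocytic receptor known from dendritic cells, was at 264 and 259 TPM in alveolar and 0.731 and 0.497 TPM in peritoneal libraries. All 3 were high in alveolar libraries and low or near 0 in peritoneal ones. Clec4d, a gene of the same cluster as Clec4n, ran the other way, at 35.1 and 41.2 TPM in alveolar and 315 and 223 TPM in peritoneal libraries. Clec10a was at 0.568 and 0.464 TPM in alveolar and 87.6 and 92.7 TPM in peritoneal libraries, and its relative Mgl2 had no alveolar read and 21.5 and 31.4 TPM in peritoneal libraries.

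Fc receptor genes differed in both directions. Of the 9 tested, 4 were higher and 4 lower in alveolar macrophages and 1 did not pass, and none differed by 2 or more on the log2(TPM + 1) scale. That scale understates Fcrls, which had no alveolar read and 2.73 and 1.14 TPM in peritoneal libraries, at least 21.7-fold lower. Fcgr4 and Fcgr3, activating receptors for antibody, differed by 1.43 ± 0.15 and -0.999 ± 0.08. Among lysosomal genes, all 46 listed genes were tested, of which 28 were higher and 17 lower in alveolar macrophages and 1 did not pass, with a median of 0.62, and 6 were higher and 2 lower by at least 2. Acp5, the acid phosphatase of osteoclasts, was at 349 and 315 TPM in alveolar and 2.68 and 3.18 TPM in peritoneal libraries, so it joined Ctsk and Atp6v0d2 among genes best known from those cells. Glb1, beta-galactosidase, was at 76.6 and 75.1 TPM in alveolar and 465 and 476 TPM in peritoneal libraries, against the direction of most lysosomal genes.

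**Figure D4:**
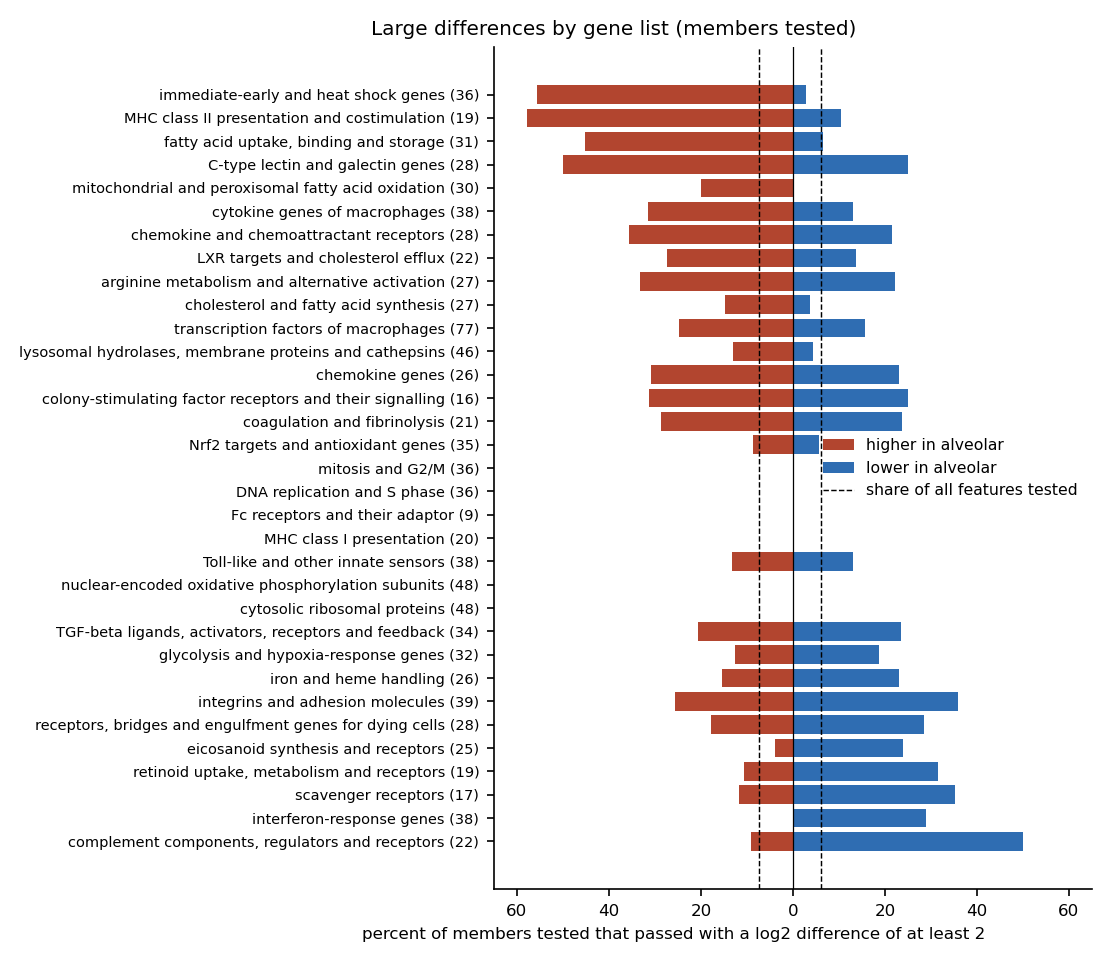
Percent of the members tested of each gene list that passed with a log2 difference of at least 2, higher in alveolar macrophages to the left and lower to the right, with the number tested in brackets; dashed lines mark the same shares of all features, 7.39% and 6.06%. Complement has 11 of 22 members on the lower side, and MHC class II has 11 of 19 and the immediate-early and heat shock list 20 of 36 on the higher side.

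Sensors of microbes differed in both directions, in shares near those of all features, and 38 of 41 listed genes were tested, of which 18 were higher and 12 lower in alveolar macrophages and 8 did not pass. Tlr2, the receptor for bacterial lipoproteins, was at 1283 and 1467 TPM in alveolar and 67.4 and 53.98 TPM in peritoneal libraries, a difference of 4.48 ± 0.20. Tlr1, a partner of Tlr2, was at 0.120 and 0.137 TPM in alveolar and 11.4 and 7.90 TPM in peritoneal libraries. The receptor and its partner thus ran in opposite directions, and its other partner Tlr6 did not pass, at 8.62 and 7.45 TPM in alveolar and 10.1 and 8.59 TPM in peritoneal libraries. Tlr5, the flagellin receptor, was at 45.2 and 49.4 TPM in alveolar and 0.492 and 0.371 TPM in peritoneal libraries, and in chimera libraries at 3.23 and 3.27 TPM. Nlrp3, an inflammasome sensor, was higher by 3.36 ± 0.36, and Pycard, the adaptor it needs, was lower, at 52.3 and 50.8 TPM in alveolar and 443 and 531 TPM in peritoneal libraries. Lbp, which hands lipopolysaccharide to Cd14, had 1 alveolar read and 179 and 218 TPM in peritoneal libraries.

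Interferon-response genes were mostly lower in alveolar macrophages. In this list, all 38 listed genes were tested, of which 3 were higher and 25 lower in alveolar macrophages and 10 did not pass, none was higher by 2 or more and 11 were lower by at least 2, with a median of -1.45. Ifitm3, an antiviral membrane protein, was at 1.88 and 2.36 TPM in alveolar and 2339 and 2501 TPM in peritoneal libraries, a difference of -9.60 ± 0.33. Oas2, a sensor of viral RNA, was at 0.315 and 0.0721 TPM in alveolar and 26.9 and 25.2 TPM in peritoneal libraries. Gbp3, a guanylate-binding protein, was at 3.74 and 3.80 TPM in alveolar and 96.1 and 113 TPM in peritoneal libraries. These were the 3 largest differences of the list. The strongly inducible genes Ifit1, Ifit3 and Isg15 were at or below 12 TPM in all 4 libraries and did not pass.

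Most MHC class II and costimulation genes were higher in alveolar macrophages, and since the peritoneal sort used the class II protein this is a description. In this list, all 19 listed genes were tested, of which 14 were higher and 5 lower in alveolar macrophages and 0 did not pass. H2-Aa, a class II chain, was at 542 and 746 TPM in alveolar and 40.7 and 13.5 TPM in peritoneal libraries. Cd74, the invariant chain, was at 1846 and 2653 TPM in alveolar and 139 and 47.4 TPM in peritoneal libraries. Ciita, the factor that drives class II genes, was at 6.55 and 13.02 TPM in alveolar and 0.733 and 0.243 TPM in peritoneal libraries. At these 3 genes the libraries of a group were far apart, each alveolar value was still above both peritoneal ones, and chimera libraries stood higher, at 12142 and 8905 TPM for Cd74. H2-Ob, a chain of a class II relative that tempers peptide loading, was lower, at 0.0456 and 0.156 TPM in alveolar and 3.92 and 4.11 TPM in peritoneal libraries. Cd274, which encodes PD-L1, was at 175 and 201 TPM in alveolar and 4.39 and 4.9998 TPM in peritoneal libraries, a difference of 5.05 ± 0.16. Cd40, the receptor for T cell help, had 3 alveolar reads and 87.997 and 86.2 TPM in peritoneal libraries, a ratio of read shares, peritoneal over alveolar, of 838 (95% interval 286 to 4063). MHC class I genes differed little, and 20 of 21 listed genes were tested, of which 4 were higher and 9 lower in alveolar macrophages and 7 did not pass, or 3 and 13 after rescaling, none by 2 or more.

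Chemokine genes differed in both directions. In all, 26 of 36 listed genes were tested, of which 15 were higher and 6 lower in alveolar macrophages and 5 did not pass. Ccl3, which draws monocytes and T cells, was at 692 and 600.1 TPM in alveolar and 6.98 and 6.38 TPM in peritoneal libraries. Ccl2, which draws monocytes, was at 136 and 167 TPM in alveolar and 1.66 and 0.859 TPM in peritoneal libraries. Cx3cl1, a membrane-bound chemokine, was at 72.7 and 70.9 TPM in alveolar and 0.0501 and 0.220 TPM in peritoneal libraries, a difference of 6.01 ± 0.15. Peritoneal libraries held under 10 TPM of each. Cxcl13, which draws B cells, had no alveolar read and 266 and 241 TPM in peritoneal libraries, at least 1595-fold lower. Ccl24, which draws eosinophils, had no alveolar read and 582 and 474 TPM in peritoneal libraries, at least 3707-fold lower. Pf4, a chemokine usually stored in platelets, was at 4.15 and 6.87 TPM in alveolar and 6918 and 6830.3 TPM in peritoneal libraries, a difference of -10.08 ± 0.46, while the platelet genes Gp9 and Itga2b were below 2 TPM in all 4 libraries.

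Receptors for such signals differed as well, and 28 of 38 listed genes were tested, of which 16 were higher and 9 lower in alveolar macrophages and 3 did not pass. Cxcr4, the receptor for Cxcl12, was at 299.98 and 311 TPM in alveolar and 3.78 and 2.62 TPM in peritoneal libraries. Cxcl12 itself was at 0.0851 and 0.156 TPM in alveolar and 11.7 and 10.6 TPM in peritoneal libraries, so receptor and ligand ran in opposite directions. Fpr1 and Fpr2, receptors for bacterial peptides, were higher by 3.78 ± 0.24 and 4.67 ± 0.20. Cmklr1, the chemerin receptor, was at 0.0428 and 0.147 TPM in alveolar and 827 and 865 TPM in peritoneal libraries, a difference of -9.60 ± 0.34. S1pr1, a receptor for sphingosine phosphate, was at 0.161 and 0.644 TPM in alveolar and 108 and 117 TPM in peritoneal libraries. Both were close to 0 in alveolar libraries.

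Genes of the interleukin 1 family were among the cytokines higher in alveolar macrophages. In this list, 38 of 48 listed genes were tested, of which 16 were higher and 14 lower in alveolar macrophages and 8 did not pass. Il1b was at 488 and 486 TPM in alveolar and 0.534 and 0.149 TPM in peritoneal libraries, a difference of 8.52 ± 0.58. Its natural antagonist Il1rn was at 335 and 331 TPM in alveolar and 1.73 and 1.51 TPM in peritoneal libraries. Il18 was at 477 and 492 TPM in alveolar and 16.5 and 16.4 TPM in peritoneal libraries. Agonist and antagonist thus differed in the same direction. Tnf was at 155 and 196 TPM in alveolar and 5.76 and 3.53 TPM in peritoneal libraries. Spp1, osteopontin, was at 642 and 614 TPM in alveolar and 7.27 and 24.3 TPM in peritoneal libraries. Retnla, a secreted protein of alternatively activated macrophages, had 2 alveolar reads and 1383 and 729.7 TPM in peritoneal libraries, which were themselves far apart, and the ratio of read shares, peritoneal over alveolar, was 5279 (95% interval 1461 to 43594). Igf1, a growth factor, was lower, with a difference of -1.73 ± 0.16, and of -0.51 with chimera libraries.

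Adhesion genes included partners of a shared integrin chain that were higher in alveolar macrophages. Itgb2 pairs with alpha chains that include Itgax, Itgam, Itgal and Itgad. Itgb2 was at 2146 and 2043 TPM in alveolar and 3767 and 4099 TPM in peritoneal libraries, a difference of -0.91 ± 0.08. Itgal, the alpha chain of LFA-1, was at 453 and 473 TPM in alveolar and 3.95 and 3.06 TPM in peritoneal libraries. Itgad was at 25.4 and 27.97 TPM in alveolar libraries and had no peritoneal read. Itgal and Itgad were thus higher in alveolar macrophages, while Itgax and Itgam are genes of the sort and no finding. Icam2, a ligand of LFA-1, was at 3.63 and 4.63 TPM in alveolar and 1632 and 1790.3 TPM in peritoneal libraries. Selp, P-selectin, had no alveolar read and 779 and 806 TPM in peritoneal libraries, at least 14640.0-fold lower. The epithelial adhesion genes Cdh1 and F11r were at 75.01 and 69.5 TPM and 306 and 329 TPM in alveolar libraries and under 0.1 TPM in each peritoneal library. In this list, 39 of 47 listed genes were tested, of which 13 were higher and 18 lower in alveolar macrophages and 8 did not pass. The sort gene Itgax is counted among the higher ones and the sort gene Itgam among the lower ones.

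Iron genes included high storage on the alveolar side, and 26 of 32 listed genes were tested, of which 13 were higher and 9 lower in alveolar macrophages and 4 did not pass. Besides Fth1, Ncoa4, which delivers ferritin for breakdown, was higher by 3.64 ± 0.09. Slc11a1, the metal pump of phagosomes, was at 10.1 and 9.97 TPM in alveolar and 683 and 642 TPM in peritoneal libraries, a difference of -5.91 ± 0.32. Hp, which binds free hemoglobin, was at 2.99 and 3.21 TPM in alveolar and 192 and 261 TPM in peritoneal libraries. Both were lower in alveolar macrophages. Flvcr2, listed in the files under the older symbol Mfsd7c and known as a membrane carrier, was at 236 and 247 TPM in alveolar and 0.229 and 0.115 TPM in peritoneal libraries.

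Arginine and alternative activation genes had no common direction, and 27 of 30 listed genes were tested, of which 15 were higher and 7 lower in alveolar macrophages and 5 did not pass. Arg1, arginase, was at 0.330 and 0.377 TPM in alveolar and 854 and 1841 TPM in peritoneal libraries, a difference of -9.86 ± 0.29, with peritoneal libraries far apart. Il4ra, the receptor chain for IL-4 and IL-13, was higher by 1.52 ± 0.08. Chil4, a close copy of Chil3, was at 18.9 and 16.4 TPM in alveolar libraries with no peritoneal read. Arg1 and Retnla were thus peritoneal, and Chil3, Mrc1 and Chil4 alveolar, among genes often grouped as one state.

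Antioxidant and glycolytic genes differed by isoform. Slc7a11, the cystine carrier, Gstm1, a glutathione transferase, and Prdx1, a peroxiredoxin, were higher by 3.27 ± 0.24, 2.53 ± 0.08 and 2.17 ± 0.07, while Gpx3, a glutathione peroxidase, and Prdx6, a peroxiredoxin, were lower, with differences of -3.39 ± 0.20 and -1.96 ± 0.09. Of antioxidant genes, 35 of 37 listed genes were tested, of which 18 were higher and 12 lower in alveolar macrophages and 5 did not pass. For phosphofructokinase, Pfkp was at 169.9 and 171 TPM in alveolar and 36.9 and 34.9 TPM in peritoneal libraries. Its isoform Pfkl was at 29.4 and 30.8 TPM in alveolar and 257 and 328 TPM in peritoneal libraries. For hexokinase, Hk1 was at 19.5 and 17.2 TPM in alveolar and 149 and 157 TPM in peritoneal libraries, and Hk2 at 33.3 and 31.8 TPM in alveolar and 22.9 and 19.7 TPM in peritoneal libraries. Each enzyme had an isoform higher and another lower in alveolar macrophages. Of glycolysis and hypoxia genes, 32 of 34 listed genes were tested, of which 12 were higher and 11 lower in alveolar macrophages and 9 did not pass. Gapdh did not pass, at 49.1 and 42.96 TPM in alveolar and 49.4 and 45.2 TPM in peritoneal libraries, a low level for this enzyme, and stood at 97.8 and 116 TPM in chimera libraries. How the authors counted reads that also match its processed copies is not given in the sources used here.

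Respiratory chain and ribosomal genes differed by less than 2 at every member tested. Of the respiratory chain, all 48 listed genes were tested, of which 17 were higher and 7 lower in alveolar macrophages and 24 did not pass, or 8 and 15 after rescaling, so that their balance depends on the scaling. Of ribosomal protein genes, all 48 listed genes were tested, of which 1 was higher and 38 lower in alveolar macrophages and 9 did not pass, with a median of -0.59, or -0.78 after rescaling. Rps19 was at 309 and 301 TPM in alveolar and 730.5 and 687 TPM in peritoneal libraries. Rpl5, the member that was higher, was at 2.05 and 2.35 TPM in alveolar and 0.858 and 1.27 TPM in peritoneal libraries and did not pass without the second alveolar or the first peritoneal library, with differences of 0.57 and 0.49. Ribosomal genes too have many processed copies, so their levels are uncertain.

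Cell cycle genes were not much apart. Of replication genes, all 36 listed genes were tested, of which 12 were higher and 5 lower in alveolar macrophages and 19 did not pass, or 8 and 8 after rescaling, and of mitosis genes, all 36 listed genes were tested, of which 15 were higher and 0 lower in alveolar macrophages and 21 did not pass, or 10 and 1 after rescaling. Pcna, the clamp of replication, was at 279.9 and 243 TPM in alveolar and 113 and 107 TPM in peritoneal libraries. Bub1b, a checkpoint kinase, was at 60.6 and 59.1 TPM in alveolar and 17.5 and 12.1 TPM in peritoneal libraries. Both were higher in alveolar macrophages. Mki67, the usual mark of dividing cells, did not pass, at 47.04 and 37.3 TPM in alveolar and 28.1 and 18.98 TPM in peritoneal libraries (limma adjusted p = 0.12), but passed with the same difference in a fit of the 4 libraries alone (limma adjusted p = 0.011).

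Immediate-early genes, which respond to many stimuli including the handling of tissue, were higher in alveolar macrophages. In this list with heat shock genes, all 36 listed genes were tested, of which 26 were higher and 1 lower in alveolar macrophages and 9 did not pass, and 20 were higher by at least 2, with a median of 2.30. Fosb was at 1686 and 1997 TPM in alveolar and 0.396 and 0.471 TPM in peritoneal libraries. Nr4a1, a nuclear receptor of this class, was at 1741 and 1965 TPM in alveolar and 16.2 and 21.5 TPM in peritoneal libraries. Egr1 was at 690.1 and 744 TPM in alveolar and 11.6 and 23.5 TPM in peritoneal libraries, and in chimera libraries at 132 and 89.3 TPM. Hspa1a, a heat shock gene, did not pass, at 4.49 and 7.02 TPM in alveolar and 4.31 and 2.72 TPM in peritoneal libraries, with 45.3 and 56.2 TPM in chimera libraries. Klf2 alone of the list was lower. Alveolar cells came from digested lungs and peritoneal cells from lavage, so tissue and isolation cannot be told apart for these genes. Tnf, Il1b, Ccl3, Klf4 and Nlrp3, given above as higher, are known to respond to like stimuli and share that limit.

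Transcripts of other cell types were looked for in both groups. Sftpc, a surfactant protein of lung epithelium, was at 32.9 and 40.6 TPM in alveolar libraries and had no peritoneal read. Scgb1a1, a secretoglobin of airway cells, was at 42.2 and 79.8 TPM in alveolar and 0.168 and 0 TPM in peritoneal libraries. Of 18 epithelial genes, 12 were tested, 11 were higher, and their sum was 285 and 339.7 TPM in alveolar and 57.2 and 58.1 TPM in peritoneal libraries. Epcam and Cdh1 made up most of the alveolar sum, and Hopx, at 4.68 and 4.80 TPM in alveolar and 55.6 and 57.2 TPM in peritoneal libraries, nearly all of the peritoneal one. Epcam is also among the alveolar macrophage markers counted above, so the counts share that gene. The defining genes Nkx2-1 and Krt8 were below 0.5 TPM in all 4 libraries. The share of epithelial RNA in the results was not tested.

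Few markers of other leukocytes reached the level to be tested, namely 2 of 14 for T and NK cells, 5 of 12 for B cells, 4 of 12 for neutrophils and 1 of 12 for eosinophils and mast cells, against 9 of 13 for dendritic cells and 11 of 14 for monocytes and small peritoneal macrophages. Cd3e of T cells and Ms4a1 of B cells were below 0.3 TPM in all 4 libraries. Cd22, known from B cells, was at 133 and 130.01 TPM in alveolar and 0.267 and 0.0671 TPM in peritoneal libraries. Pax5, the B cell factor, was at 17.8 and 3.75 TPM in alveolar and 0.123 and 0.0206 TPM in peritoneal libraries, and in chimera libraries at 0.0272 and 0.0110 TPM. The alveolar libraries were thus uneven at Pax5. S100a8 of neutrophils was at 19.9 and 17.4 TPM in alveolar and 8.03 and 6.30 TPM in peritoneal libraries. Fscn1, of mature dendritic cells, was at 0.0914 and 0.418 TPM in alveolar and 111 and 109 TPM in peritoneal libraries. Hdc, which makes histamine in mast cells and basophils, was at 0.254 and 0.406 TPM in alveolar and 107 and 111 TPM in peritoneal libraries. Mmp9 of the neutrophil list was at 0.0768 and 0 TPM in alveolar and 15.8 and 13.98 TPM in peritoneal libraries, and Cd209a of the dendritic cell list at 0.0821 and 0 TPM in alveolar and 14.5 and 14.1 TPM in peritoneal libraries. These 4 genes were near 0 in alveolar libraries alone. Of the 4 neutrophil markers tested, however, 3 were higher in alveolar macrophages and Mmp9 alone was lower. Mmp8 of that list was at 34.98 and 27.4 TPM in alveolar and 0.0963 and 0.443 TPM in peritoneal libraries. Of the 9 dendritic cell markers tested, 5 were higher and 3 lower in alveolar macrophages and 1 did not pass. Naaa was at 610 and 590 TPM in alveolar and 58.6 and 61.5 TPM in peritoneal libraries. Ccl22 was at 21.6 and 17.8 TPM in alveolar libraries with no peritoneal read, at least 260-fold higher. Of the markers of monocytes and small peritoneal macrophages, 4 were higher and 6 lower in alveolar macrophages. Chil3, given above and also counted as an alveolar marker, was among the higher ones, and F13a1 and Retnla among the lower ones. The part of other leukocytes in the results was not tested.

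**Figure D5:**
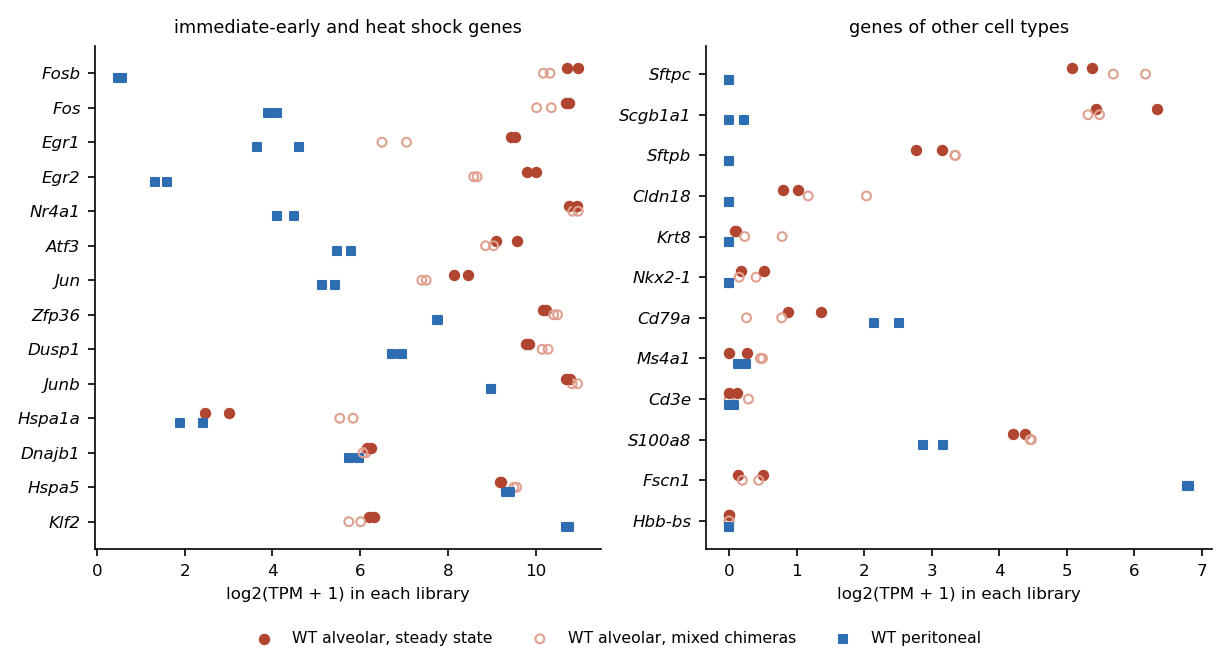
Level of immediate-early and heat shock genes (left) and of genes of other cell types (right) in each library, as log2(TPM + 1), for WT alveolar macrophages at steady state (filled circles), WT alveolar macrophages of mixed chimeras (open circles) and WT peritoneal macrophages (squares). Fosb to Junb lie higher in both kinds of alveolar library, Hspa1a is high in chimera libraries alone, and Sftpc and Scgb1a1 are near 0 in peritoneal libraries.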

How the data were processed

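Poly(A) RNA-seq libraries were made from sorted macrophages with RNeasy Plus Mini, Dynabeads mRNA and NEBNext Ultra II kits, per the labels' protocols. The authors deposited TPM per gene and library, and a mean normalized count per table (a signal divided by size factors, named as DESeq2 names it). Per the submitters' processing notes, Bowtie 1.0.0, Bowtie2, TopHat 1.4.1, HTSeq 0.5.3, DESeq2 1.2.10, mm9 and GRCm38.p3 were used, with roles not given in the sources used here. The deposited tables list 24732 features, and 12303 were tested, namely those that reached 1 TPM in 2 or more of 12 libraries.

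The difference was fitted with limma 3.58.1 (R 4.3.3; intensity trend, 6 group means, 6 residual degrees of freedom) on log2(TPM + 1). Whole reads per gene were recovered from the deposited TPM and mean counts to within 0.01 of a whole number, and served for depth, for ratios of read shares and for a voom alternative. The fit was tested on simulated data for this comparison with 11909 features, where 65% of 100 genes changed by 1 log2 unit and 99% of 100 changed by 2 were called, with 12 of 11709 unchanged ones. In that simulation all libraries shared the same means and a fixed spread, and only these genes were changed. The real groups differed at most genes and in composition, so these shares are no error rates of the real comparison. The members and the gene lists were chosen with earlier results of these data known, so no list count is independent evidence. Genes named are the 12 largest differences each way among genes of at least 50 TPM, the 12 most abundant of each group, up to 3 members of each of 47 lists in each direction, and members needed to describe a pathway, and some of the genes so chosen are not reported here. Libraries are described as 2 biological replicates per condition in the series' design, and p-values measure the spread between them. The files mark 1823 of the tested features with a suffix for overlap whose counting rule is not given in the sources used here. Among them are Plet1, Prg4, Slpi, Gata6, Bhlhe40, Csf1r, Csf2rb, Ear2, Cd74, F5, Selp and Rpl5. A sequence table of RefSeq promoters was searched for 5 motifs. Alternatives were the pseudocount, the filter, the scaling, the libraries in the fit, a replicate block, the variance model, and leaving out each library.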

Additional observations from a re-analysis of the deposited data

How the results depend on the processing

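The count of genes passing stayed within 1.5 times its value under every alternative run: 8298 with a pseudocount of 0.1, 8977 without the filter, 7280 with TPM of at least 5, 8463 after rescaling, 8872 with 4 libraries alone, 8517 with chimera libraries, 8328 without the trend, and 7363 to 7492 leaving out a library. With voom on recovered reads it was 8622, and of genes with a log2 difference of at least 2 voom called 1271 higher and 1135 lower, against 909 and 745. A pseudocount of 0.1 gave 1268 higher and 1069 lower under that condition, so this second count depends on the pseudocount. With the second condition, leaving out a library gave 1636 to 1669. The labels share replicate numbers but state no pairing. The correlation of deviations of same-numbered libraries was -0.018 over 12303 features. With 2 libraries a group, that value cannot tell whether same-numbered libraries were paired. With a replicate block 8327 genes passed.

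Of 323 genes followed by rule or as pathway members, 303 kept direction and side of the threshold with chimera libraries, 312 after rescaling, and 312 to 318 without a library. Values of called genes moved by over 1.5 times at 40 with a pseudocount of 0.1, at 62 with voom and at 42 with chimera libraries. Directions reversed at 14 genes, of which 4 had passed. After rescaling the log2 difference was -0.16 for Acadl, -0.089 for C3, -0.17 for Fabp5, -0.034 for Irf8 and -0.051 for Naip6. With chimera libraries it was -0.15 for Acadl, 0.35 for Ctse, 1.15 for Gapdh, -0.11 for Gp9, -0.15 for Irf8, -0.33 for Naip6, 0.13 for Ndufa1 and -0.071 for Pax5. Of these 8 genes, Ctse, Gp9, Ndufa1 and Pax5 had passed with steady-state libraries, and Gapdh passed with chimera libraries. With voom it was -0.049 for Acadl and -0.062 for Fabp5. Leaving out an alveolar library gave -0.0046 to 0.044 for Acadl, -0.13 to 0.054 for Gapdh and a low of -0.093 for Fabp5, and 0.060 as the highest for Naip5. Leaving out a peritoneal library gave -0.13 to 0.040 for Alox5, -0.12 to 0.14 for Fabp5, -0.21 to 0.042 for Fasn, -0.20 to 0.018 for Hadh, -0.14 to 0.067 for Naip5 and a high of 0.023 for Gapdh. After rescaling Hadh, Stat5b and Tlr6 passed as lower, with -0.27, -0.27 and -0.36, and Actb no longer passed, with 0.34. The cause was not tested.

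Depth limits the 49 of these genes with 0 to 3 reads in a group, where leaving out a library lowered the bound or ratio to a median of 0.45 and a minimum of 0.148 times its value, and the lowest then was 3.15. With 2 libraries a group, a gene that did not pass is not shown to be equal.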

Other observations

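The chimera and steady-state WT alveolar libraries, which share tissue but differ in library series, in the history of the host and in the added sort by CD45.1, differed at 5039 features past the threshold (limma, adjusted p under 0.05) and at 107 by at least 2 log2 units, with a median absolute difference of 0.29, against 0.57 between steady-state alveolar and peritoneal macrophages. Among genes high in steady-state alveolar libraries, Marco was at 13.9 and 25.999 TPM in chimera libraries, against 391 and 368 TPM at steady state. Tlr5 was at 3.23 and 3.27 TPM in chimera libraries, against 45.2 and 49.4 TPM at steady state. Cd74 and H2-Aa were at 12142 and 8905 TPM and 3624 and 2572 TPM in chimera libraries, against 1846 and 2653 TPM and 542 and 746 TPM at steady state. Differences of that size between preparations of the same cell type were thus present at single genes, and their cause was not tested.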
